A study of Gallus gallus with 6 samples.

Results

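HCN4, HTR3A, KCNJ15 and CFTR encode 4 ion channel proteins of different families, and their transcripts were followed in embryonic chicken (Gallus gallus) basilar papillas given excess Wnt9a. The 4 genes were found by name in the authors' deposited tables of changed genes and are 4 of the 15955 genes counted. They were chosen by their log2 fold changes in this same comparison, where they stood among the largest rises and falls, so their values are given as a description, without a test. The basilar papilla is the auditory sensory organ of the bird inner ear. The RCAS(A)-Wnt9a group held 3 libraries from papillas whose right otocysts were given RCAS(A) virus carrying Wnt9a on embryonic day 3. The RCAS(A) group held 3 libraries from papillas given the parent virus in the same way, so both groups carried the same replication-competent avian retrovirus. All papillas were taken on embryonic day 6, and each library was made from the pooled RNA of 24 papillas. The share of infected cells in a pool was not analysed here.

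HCN4 forms a cation channel that opens when the membrane hyperpolarizes, binds cyclic AMP and carries the pacemaker current of the heart. HTR3A is a subunit of the serotonin-gated cation channel, which belongs to the pentameric receptor family and depolarizes the cells that carry it. KCNJ15 is an inward rectifier potassium channel of the kind that holds cells near their resting potential and moves potassium across epithelia. CFTR, a member of the ATP-binding cassette family, is an anion channel opened by cyclic AMP-dependent phosphorylation, through which epithelia secrete chloride and bicarbonate. Epithelia of the inner ear set the ion content of the fluids around the sensory cells, and channels of the sensory cells and their neurons shape the electrical response.

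The libraries held 19200235 to 23017150 counts, and 12133 genes had enough counts to be tested. Levels are in CPM, a gene's count scaled to a common library total. Across genes, which are not independent replicates, libraries of 1 group had Pearson's r of 0.994 to 0.997 on the log2 scale. No pair within a group agreed within counting noise, since chi-square per degree of freedom was 4.64 to 12.7. RCAS(A) replicate 3 differed more from RCAS(A) replicates 2 and 4 (9.43 and 10.3) than these did from each other (4.64). The pairs of RCAS(A)-Wnt9a libraries lay at 11.3 to 12.7. WNT9A, which the virus carries, was measured at 1340, 539 and 427 CPM in RCAS(A)-Wnt9a replicates 1, 2 and 3, whereas RCAS(A) replicates 2, 3 and 4 held 7.90, 6.87 and 10.3 CPM. Its log2 fold change of 6.53 (edgeR quasi-likelihood test, adjusted p = 0.0307) was past the threshold of 0.05, and all libraries matched their labels. That call was lost without RCAS(A) replicate 2, 3 or 4 (adjusted p = 0.164, 0.152 and 0.162) and without RCAS(A)-Wnt9a replicate 2 (adjusted p = 0.0828). It held without RCAS(A)-Wnt9a replicate 1 or 3 (edgeR quasi-likelihood test, adjusted p = 5.94e-07 and 0.0472). DESeq2, limma-voom and edgeR's exact test on all libraries also called WNT9A. The lowest RCAS(A)-Wnt9a library held 41.4 times the WNT9A level of the highest RCAS(A) library. Viral and endogenous WNT9A transcripts cannot be told apart at this gene.

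HCN4 (ENSGALG00000001764) had the highest counts of the 4 genes with Wnt9a. Its level was 26.3, 31.5 and 23.7 CPM in RCAS(A)-Wnt9a replicates 1, 2 and 3, whereas RCAS(A) replicates 2, 3 and 4 held 8.20, 6.73 and 8.88 CPM. The groups did not overlap, and the lowest RCAS(A)-Wnt9a library held 2.67 times the level of the highest RCAS(A) library. The means were 27.1 ± 3.97 CPM with RCAS(A)-Wnt9a and 7.94 ± 1.10 CPM with RCAS(A) (SD, n = 3 each), a log2 fold change of 1.78 with an SE of 0.14, or 3.42-fold higher. The files place the gene on chromosome 10 of galGal4, from 1527276 to 1624455. In these pools of whole papillas, a change in the number of cells of a type and a change in RNA per cell cannot be told apart, which holds for each gene below.

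HTR3A (ENSGALG00000007004) was also higher with RCAS(A)-Wnt9a, at a lower count. RCAS(A)-Wnt9a replicates 1, 2 and 3 held 6.03, 6.45 and 4.46 CPM, whereas RCAS(A) replicates 2, 3 and 4 held 2.07, 2.01 and 1.53 CPM. The lowest value with Wnt9a was 2.15 times the highest with the parent virus, so the groups did not overlap. The means of 5.65 ± 1.05 CPM with RCAS(A)-Wnt9a and 1.87 ± 0.30 CPM with RCAS(A) (SD, n = 3 each) gave a log2 fold change of 1.59 with an SE of 0.21, or 3.01-fold higher. These values rest on 84 to 145 counts in an RCAS(A)-Wnt9a library and 31 to 48 counts in an RCAS(A) library. For the smallest, 31 counts in RCAS(A) replicate 4, the exact 95% Poisson interval was 1.04 to 2.17 CPM, which covers counting error only.

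KCNJ15 (ENSGALG00000016055) was lower with RCAS(A)-Wnt9a. It was measured at 4.01, 5.56 and 5.73 CPM in RCAS(A)-Wnt9a replicates 1, 2 and 3, whereas RCAS(A) replicates 2, 3 and 4 held 13.3, 13.1 and 13.4 CPM. All RCAS(A) libraries stood at nearly the same level, and the lowest of them held 2.29 times the highest RCAS(A)-Wnt9a value. The means were 5.10 ± 0.95 CPM with RCAS(A)-Wnt9a and 13.3 ± 0.13 CPM with RCAS(A) (SD, n = 3 each), a log2 fold change of -1.38 with an SE of 0.15, or 2.61-fold lower. The files place it on chromosome 1 of galGal4, from 106882439 to 106907061.

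CFTR (ENSGALG00000009324) was the other gene that was lower. RCAS(A)-Wnt9a replicates 1, 2 and 3 held 2.52, 2.63 and 1.91 CPM, whereas RCAS(A) replicates 2, 3 and 4 held 5.91, 5.45 and 6.07 CPM. Again the groups did not overlap, with the lowest RCAS(A) library at 2.07 times the highest RCAS(A)-Wnt9a library. The means were 2.35 ± 0.39 CPM with RCAS(A)-Wnt9a and 5.81 ± 0.32 CPM with RCAS(A) (SD, n = 3 each), a log2 fold change of -1.29 with an SE of 0.19, or 2.45-fold lower. In RCAS(A)-Wnt9a replicate 3 the gene had 36 counts, with an exact 95% Poisson interval of 1.34 to 2.65 CPM that covers counting error only. The files list CFTR on chromosome 1 as well, within a locus from 24324799 to 24502386 that it shares with another gene.

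**Figure D1:**
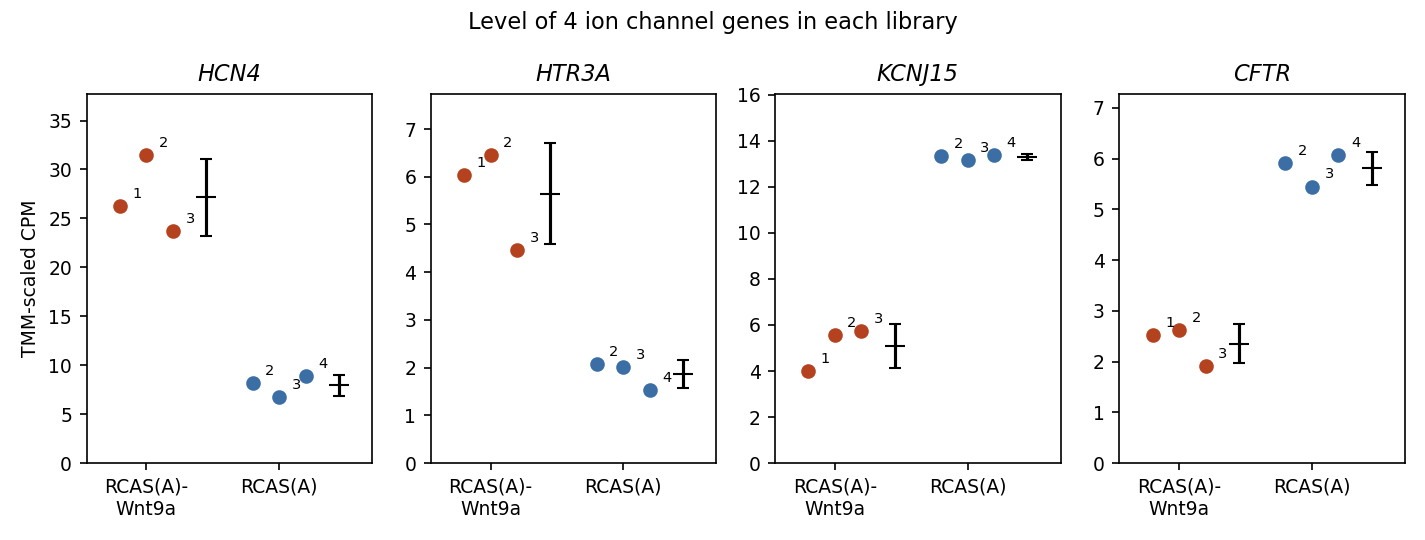
TMM-scaled CPM (y axis) of each gene in every library, RCAS(A)-Wnt9a on the left and RCAS(A) on the right of each panel. Numbers are replicate numbers, and the black bars are the mean ± SD of 3 libraries. HCN4 and HTR3A are higher and KCNJ15 and CFTR lower with RCAS(A)-Wnt9a, with no overlap between the groups in any panel.

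All 4 genes passed the threshold that 2.27% of the tested genes passed (edgeR quasi-likelihood fit), and the libraries of the groups did not overlap in any of the 4, as for 19.0% of tested genes (9.82% higher and 9.16% lower with RCAS(A)-Wnt9a). Nothing is read from these counts, because this contrast chose the genes. By size, 17 of the 12133 tested genes had a larger absolute log2 fold change than HCN4, 32 a larger one than HTR3A, 45 than KCNJ15 and 51 than CFTR. Ranked by average expression, the 4 genes stood in the lower part of the tested genes: 33.8% of tested genes had a lower average than HCN4, 24.3% than KCNJ15, 16.2% than CFTR and 15.3% than HTR3A.

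The spread within a group differed among the genes. The coefficient of variation of HCN4 was 14.6% over the RCAS(A)-Wnt9a libraries and 13.9% over the RCAS(A) libraries, where counting alone would give about 4.16% and 7.62%. For HTR3A it was 18.6% with RCAS(A)-Wnt9a and 15.9% with RCAS(A), where counting alone would give 9.09% and 15.6%. The spread of HTR3A among RCAS(A) pools was thus about the size of counting error. KCNJ15 varied by 18.7% with RCAS(A)-Wnt9a and by 0.951% with RCAS(A), the second value being below the 5.88% that counting gives on average. CFTR varied by 16.4% with RCAS(A)-Wnt9a, near its counting error of 14.1%, and by 5.57% with RCAS(A), under its counting error of 8.90%. The fit estimated biological coefficients of variation of 11.0% for HCN4, 11.4% for KCNJ15, 12.5% for CFTR and 14.9% for HTR3A, above the common value of 8.06% over all tested genes. These estimates rose as average expression fell, and genes of like expression were not compared, so the 4 genes are not shown to be unusually variable.

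HCN4, HTR3A and CFTR did not order the RCAS(A)-Wnt9a pools as WNT9A did, while KCNJ15 was furthest from its RCAS(A) mean where WNT9A was highest. RCAS(A)-Wnt9a replicate 1 had 160 times the mean RCAS(A) level of WNT9A, against 64.5 times in replicate 2 and 51.1 times in replicate 3. HCN4 was 3.31, 3.96 and 2.98 times its RCAS(A) mean in the same libraries, and HTR3A was 3.22, 3.45 and 2.38 times its own, both highest in replicate 2. KCNJ15 was furthest below its RCAS(A) mean in replicate 1, at 0.302 times, against 0.419 and 0.432 times in replicates 2 and 3. CFTR was furthest below in replicate 3, at 0.329 times, against 0.434 and 0.452 times in replicates 1 and 2. With 3 pools no relation to the amount of WNT9A can be tested.

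**Figure D2:**
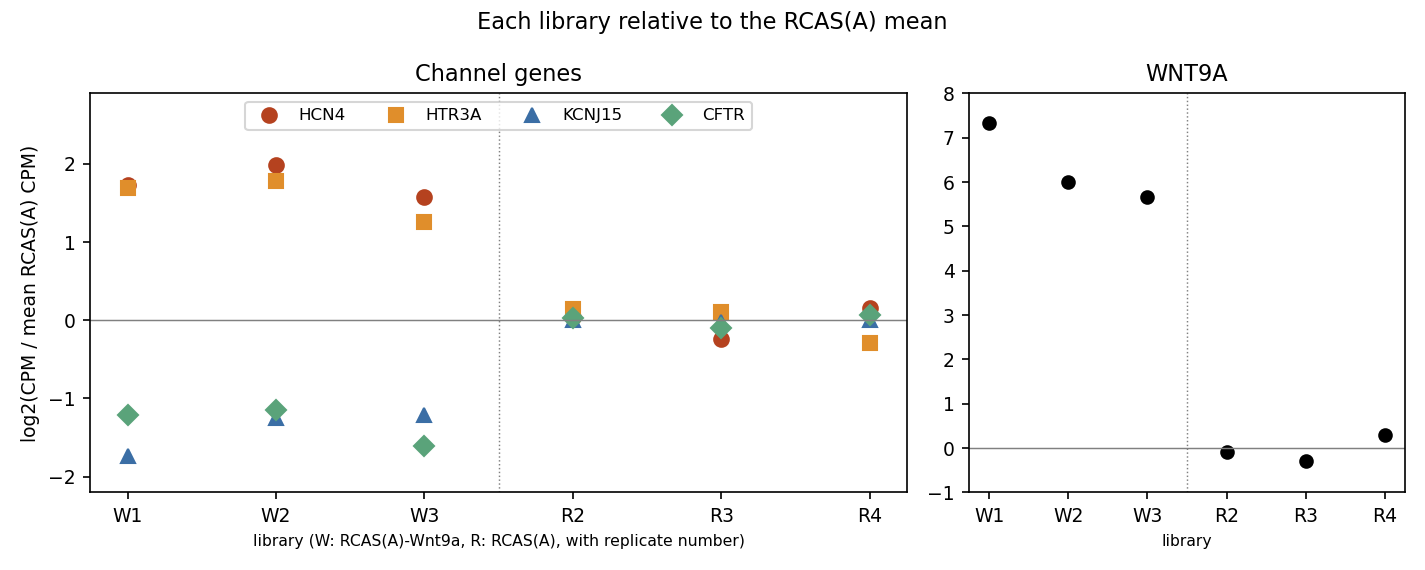
Log2 of the CPM in each library over the mean RCAS(A) CPM (y axis), for the channel genes on the left and WNT9A on the right; W1 to W3 are the RCAS(A)-Wnt9a libraries and R2 to R4 the RCAS(A) libraries. The channel genes keep to one side of the RCAS(A) mean in all RCAS(A)-Wnt9a pools, while WNT9A spans 427 to 1340 CPM there.

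Count ratios within a library do not depend on its scaling. The count of HCN4 over that of KCNJ15 was 6.56, 5.66 and 4.13 in RCAS(A)-Wnt9a replicates 1, 2 and 3, against 0.615, 0.512 and 0.664 in RCAS(A) replicates 2, 3 and 4. The count of HTR3A over that of CFTR was 2.39, 2.46 and 2.33 in the RCAS(A)-Wnt9a libraries, against 0.350, 0.370 and 0.252 in the RCAS(A) libraries. Both ratios, each of a gene that was higher over one that was lower, stood above 1 with RCAS(A)-Wnt9a and below 1 with RCAS(A). Because the genes were chosen by this contrast, both ratios had to be higher with RCAS(A)-Wnt9a. As ratios of counts they are not ratios of molecules, since longer transcripts give more counts. Ratios within a direction overlapped between the groups. HCN4 over HTR3A averaged 4.85 ± 0.48 with RCAS(A)-Wnt9a and 4.37 ± 1.28 with RCAS(A), and KCNJ15 over CFTR averaged 2.24 ± 0.71 with RCAS(A)-Wnt9a and 2.29 ± 0.11 with RCAS(A) (SD, n = 3 each).

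Levels can be compared between genes on the FPKM scale, which divides by transcript length, for which the authors' deposited table gives 1 pooled value per group with confidence bounds. With RCAS(A)-Wnt9a, HCN4 stood highest at 6.66 FPKM (bounds 5.29 to 8.03), followed by KCNJ15 at 2.78 (1.86 to 3.69), HTR3A at 2.59 (0 to 6.16) and CFTR at 0.545 (0.302 to 0.787). With RCAS(A), the order of the pooled FPKM was KCNJ15 at 7.56 (5.71 to 9.40), HCN4 at 1.86 (1.33 to 2.39), CFTR at 1.38 (0.931 to 1.82) and HTR3A at 0.855 (0 to 2.76), per the authors' deposited table. HCN4 and KCNJ15 thus changed places at the top of the order, and their bounds did not overlap in either group. The bounds of HTR3A overlapped those of all the other genes with RCAS(A)-Wnt9a and those of HCN4 and CFTR with RCAS(A), and HCN4 and CFTR also overlapped with RCAS(A), so these places in the order are not separated. Of the genes listed in the authors' deposited table, 46.0% had a lower FPKM than HCN4 with RCAS(A)-Wnt9a and 34.9% with RCAS(A). For KCNJ15 those shares were 37.7% with RCAS(A)-Wnt9a and 47.7% with RCAS(A) in the authors' deposited table.

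**Figure D3:**
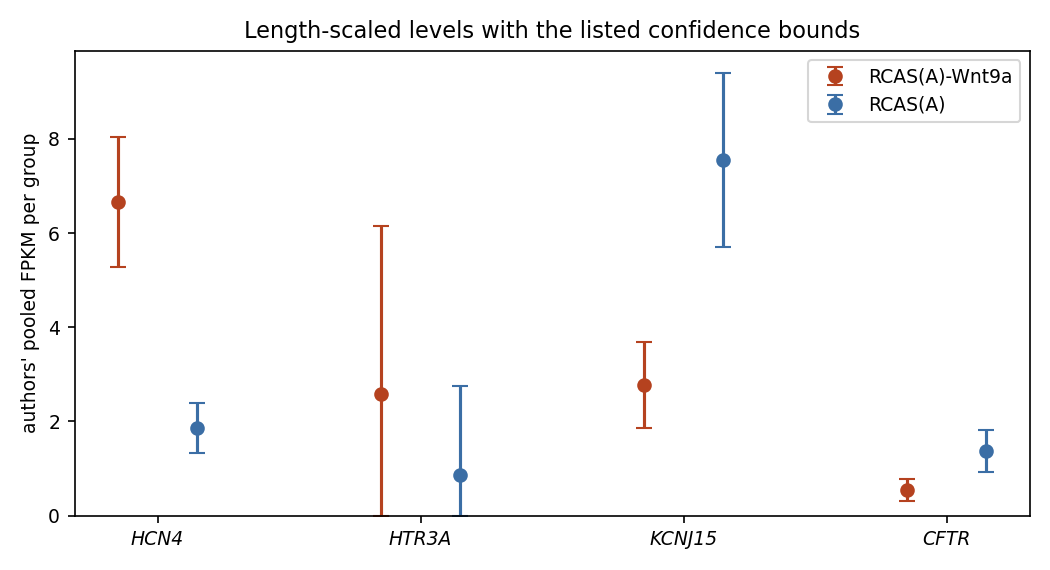
The authors' pooled FPKM (y axis, linear) of each gene with RCAS(A)-Wnt9a (left point) and RCAS(A) (right point); bars are the confidence bounds listed in the deposited table. HCN4 is highest with RCAS(A)-Wnt9a and KCNJ15 with RCAS(A), and the bounds of HTR3A reach 0 in both groups.

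The bounds of HTR3A were wide where those of the other genes were not. The files give HTR3A a locus on chromosome 24 of galGal4, from 4392699 to 4567637, or 175 kb, that 8 genes share, and CFTR one of 178 kb that 2 genes share. RefSeq's GRCg7b annotation gives a length of 12.6 kb for HTR3A and 84.0 kb for CFTR, so both listed loci are wider than the RefSeq genes. HCN4 and KCNJ15 were the only genes listed at their loci, of 97.2 and 24.6 kb. RefSeq gives them 146 and 25.2 kb, so the HCN4 gene is longer there than its listed locus. Reads that overlap more than 1 of these genes could not be followed here, as the strand setting of the counting is not given in the sources used here.

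The genes beside the 4 were followed to see whether a wider stretch of chromosome moved with them. In RefSeq's GRCg7b annotation the nearest protein-coding genes are NEO1 and REC114 for HCN4, KCNJ6 and ERG for KCNJ15, CTTNBP2 and ASZ1 for CFTR, and USP28 and ZBTB32 for HTR3A, and the files do not tie these names to their own identifiers. In the files' own order, 16 genes stood next to one of the 4 or shared its locus, and 11 of them had enough counts to be tested. None of those 11 passed the threshold (0 in the edgeR quasi-likelihood test, DESeq2, limma-voom and edgeR's exact test, and 4 at an unadjusted p under 0.05), with log2 fold changes from -0.45 to 0.14. The 4 neighbours at an unadjusted p under 0.05 were all at the HTR3A locus or beside it, at -0.20, 0.14, -0.45 and -0.13. For each of them the groups did not overlap, as held for 19.0% of tested genes. The genes on either side of KCNJ15 had log2 fold changes of -0.29 and 0.11, and those on either side of CFTR 0.10 and -0.10. Of the genes at the HTR3A locus the one furthest from 0 stood at -0.45 on the log2 scale, with a mean of 11.8 CPM with RCAS(A)-Wnt9a and 16.1 CPM with RCAS(A) (edgeR adjusted p = 0.116), against 1.59 for HTR3A. Both neighbours of HCN4 had too few counts to be tested. The one at higher coordinates (ENSGALG00000001744, 46.1 kb away) had 15, 7 and 11 counts in RCAS(A)-Wnt9a replicates 1, 2 and 3, against 4, 3 and 3 counts in RCAS(A) replicates 2, 3 and 4. Its means were 0.523 CPM with RCAS(A)-Wnt9a and 0.153 CPM with RCAS(A), the same direction as HCN4. Whether it is a separate gene from HCN4, which RefSeq gives a longer span than the listed locus, was not tested.

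**Figure D4:**
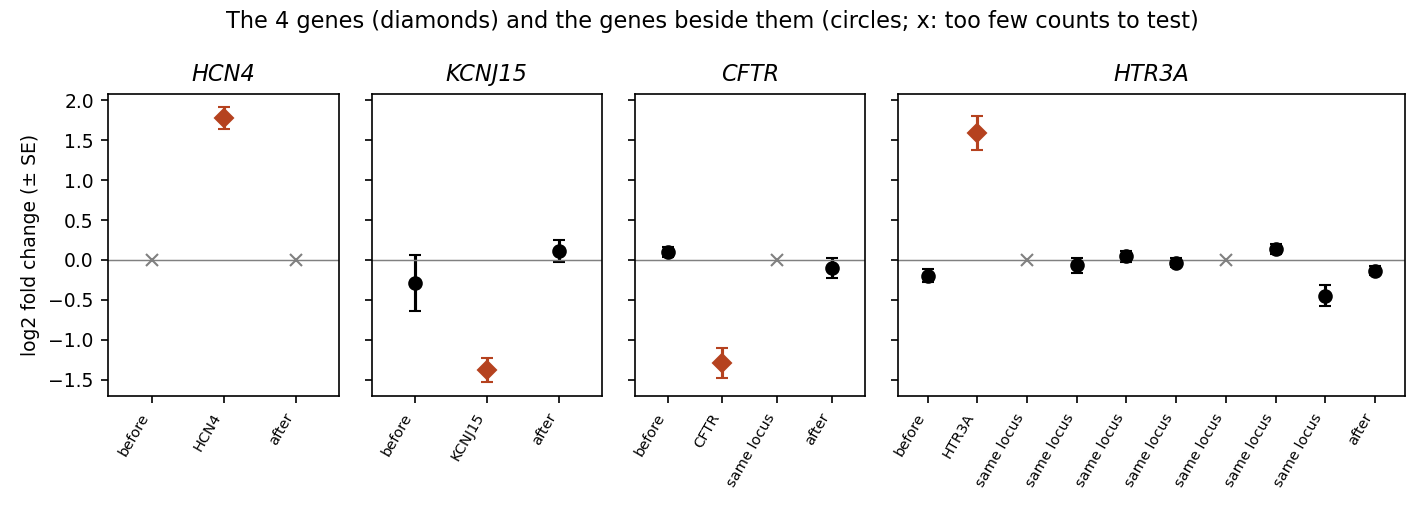
Log2 fold change, RCAS(A)-Wnt9a over RCAS(A), with its SE (y axis) for each gene (diamond) and, in the files' order, for the gene before it, those listed at the same locus and the gene after it (circles); crosses at 0 mark genes with too few counts to be tested. The tested neighbours lie between -0.45 and 0.14. The position of a cross is not a measured value.

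Genes with the most similar pattern were taken by Pearson's r of log2(CPM + 1) over the 6 libraries, among the 483 other named and tested genes. The files name genes only in the authors' lists of changed genes, so such values mostly reflect the shared split into 2 groups and are given without a test. HCN4 was most like SH3RF1, a ubiquitin ligase gene (0.994), the mesenchymal homeobox gene PRRX1 (0.994) and SLC24A4, whose product exchanges sodium for calcium and potassium (0.993). SLC24A4 held 138, 147 and 129 CPM in RCAS(A)-Wnt9a replicates 1, 2 and 3, whereas RCAS(A) replicates 2, 3 and 4 held 42.9, 32.1 and 50.9 CPM, with the highest and the lowest library of each group the same as for HCN4. HTR3A was most like the chemokine receptor gene CCR7 (0.991), the laminin gene LAMA3 (0.989) and CCNJL, a gene named for its likeness to cyclin J (0.989).

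KCNJ15 was most like STC2, a secreted glycoprotein hormone gene (0.997), TECTB, which encodes a tectorial membrane protein (0.995), and the integrin gene ITGA8 (0.994). STC2 held 10.5, 12.8 and 12.5 CPM in the RCAS(A)-Wnt9a libraries, against 24.4, 22.5 and 23.8 CPM in the RCAS(A) libraries, lowest in replicate 1 as KCNJ15 was. CFTR was most like SPARCL1, a matricellular protein gene (0.995), FAM19A4 (0.990) and C1QTNF4 (0.982), the last 2 both secreted protein genes. SPARCL1 held 1.71, 2.09 and 1.06 CPM with RCAS(A)-Wnt9a, against 11.7, 9.06 and 9.52 CPM with RCAS(A). None of the 4 genes was among the 3 most like another of them. HCN4 and HTR3A had r = 0.963 and KCNJ15 and CFTR r = 0.938, while 97, 89, 76 and 60 of the tested genes lay above 0.95 with HCN4, HTR3A, KCNJ15 and CFTR.

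Other genes of ion channels, ion transport and the serotonin and cyclic AMP pathways were read through 13 lists of 410 genes besides the 4. A list gene had a value only where the authors' tables of changed genes give its name, which they do for 21, so the counts are not independent evidence and unnamed genes are not shown to be unchanged. Of the 21, 5 rose, 6 fell and 10 missed the threshold (edgeR quasi-likelihood test, adjusted p under 0.05). The 21 include TPH1, HTR1B, ADCY5 and PDE8B, which belong to the serotonin and cyclic AMP pathways and are not channels or transporters. The median log2 fold change of the 21 was 0.34, which cannot show a shift of the lists, since genes were named only where called changed. Threshold passes made up 1.43% of tested genes upward and 0.841% downward. A single one of the 11 genes past the threshold, AQP5, changed by at least 2-fold, as 0.808% of tested genes did whatever their p, so the other 10 moved less than any of the 4 genes. The number of the 21 past the threshold was 2, 7, 4, 8, 6 and 8 without RCAS(A) replicate 2, 3 or 4 or RCAS(A)-Wnt9a replicate 1, 2 or 3, and SCN4B alone passed in all of these fits. ATP2B2, CACNA1B, KCNK2 and SCNN1B passed in 4 of these 6 fits, and ANO3, SLC4A4 and TPH1 in 2. ADCY5 and GRIN3A passed in 1 and AQP5 in 0, so most of these calls were not kept in every fit. A fit on fewer libraries can lose calls for that reason alone. The losses thus do not show that a call depended on the library left out.

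No other member of the families of HCN4 and KCNJ15 had a name in the tables, among 9 other hyperpolarization-activated and cyclic nucleotide-gated channel genes and 16 other genes of inward rectifiers and their subunits. The same held for the 45 other genes of the pentameric receptor family of HTR3A, for 64 voltage-gated and calcium-activated potassium channel genes and for 10 genes of channel partners. Among potassium channels, KCNK2, a two-pore leak channel, fell, with 19.1, 17.4 and 19.5 CPM in RCAS(A)-Wnt9a replicates 1, 2 and 3, whereas RCAS(A) replicates 2, 3 and 4 held 26.2, 26.5 and 26.2 CPM. Its log2 fold change was -0.50 (SE 0.09, edgeR adjusted p = 0.00948).

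The list of chloride and anion channels, which also takes in their relatives and accessory proteins, held 3 named genes besides CFTR, of which 1 rose. This was ANO3, of the anoctamin family, with 23.2 ± 2.71 CPM with RCAS(A)-Wnt9a and 15.8 ± 2.04 CPM with RCAS(A) (SD, n = 3 each; log2 fold change 0.56, edgeR adjusted p = 0.0279). SLC26A9, an epithelial chloride transporter, and CLCA2, a chloride channel accessory protein, missed the threshold at 0.66 and 0.54 on the log2 scale (edgeR adjusted p = 0.0913 and 0.213). Among the fits with 1 library left out, CLCA2 passed only without RCAS(A) replicate 3 (edgeR adjusted p = 0.00568). ANO3, SLC26A9 and CLCA2 had positive log2 fold changes, and CFTR a negative one.

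Voltage-gated sodium and calcium channel genes had 2 that rose and 2 that missed the threshold. SCN4B, a sodium channel beta subunit, held 27.7, 27.5 and 24.8 CPM in RCAS(A)-Wnt9a replicates 1, 2 and 3, whereas RCAS(A) replicates 2, 3 and 4 held 14.7, 15.5 and 15.9 CPM. It rose by 0.80 on the log2 scale (SE 0.10, edgeR adjusted p = 0.000513). CACNA1B, the pore subunit of the N-type calcium channel, which the authors' tables list as S6, rose by 0.62 (SE 0.10, edgeR adjusted p = 0.00908). The T-type calcium channel genes CACNA1H and CACNA1I had log2 fold changes of 0.35 and -0.63 and missed the threshold (edgeR adjusted p = 0.0860 and 0.0807).

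In the list of glutamate-gated, purinergic and acid-sensing channels, both named genes fell. SCNN1B, a subunit of the epithelial sodium channel, had 31.0 ± 2.88 CPM with RCAS(A)-Wnt9a and 41.9 ± 2.06 CPM with RCAS(A) (SD, n = 3 each; log2 fold change -0.43, edgeR adjusted p = 0.0148). GRIN3A, an NMDA receptor subunit, had a log2 fold change of -0.41 (edgeR adjusted p = 0.0369). The TRP and mechanosensitive list had 3 named genes, none past the threshold in edgeR's quasi-likelihood test or limma-voom, against 3 at an unadjusted p under 0.05. DESeq2 called 2 of them and the exact test of edgeR called 3. Their names came from the authors' DESeq2 and edgeR lists of changed genes, so these 2 counts are not independent of the naming. The 3 genes were ITPR3, PIEZO1 and TRPM5, with log2 fold changes of 0.26, 0.34 and 1.13.

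Among inner ear ion transport genes, 1 rose, 2 fell and 1 missed the threshold. SLC4A4, a sodium bicarbonate cotransporter gene, rose by 0.30 on the log2 scale (edgeR adjusted p = 0.0177), and ATP2B2, a plasma membrane calcium pump gene, fell, with a log2 fold change of -0.45 (edgeR adjusted p = 0.0101). The water channel gene AQP5 passed on very few counts, 1, 4 and 3 in RCAS(A)-Wnt9a replicates 1, 2 and 3 against 12, 12 and 14 in RCAS(A) replicates 2, 3 and 4. AQP5 passed in 0 of the 6 fits with 1 library left out. The ratio of its scaled counts was 0.216, with an exact 95% counting interval of 0.0872 to 0.471. GJB6, which encodes a connexin, stood at 0.46 on the log2 scale and missed the threshold (edgeR adjusted p = 0.114). Among the fits with 1 library left out, GJB6 passed only without RCAS(A) replicate 3 (edgeR adjusted p = 0.00532).

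The pathways that act on these channels held few named genes. In the serotonin list TPH1, which catalyses the first step of serotonin synthesis, fell, opposite in sign to HTR3A. Its level was 39.1 ± 4.79 CPM with RCAS(A)-Wnt9a and 56.0 ± 6.89 CPM with RCAS(A) (SD, n = 3 each; log2 fold change -0.52, edgeR adjusted p = 0.0220). The serotonin receptor gene HTR1B, which is coupled to G proteins, had a log2 fold change of -0.46 and missed the threshold (edgeR adjusted p = 0.0886). In the cyclic AMP list, ADCY5, which makes cyclic AMP, rose by 0.47 on the log2 scale (edgeR adjusted p = 0.0265), and PDE8B, which breaks it down, had a log2 fold change of 0.93 and missed the threshold (edgeR adjusted p = 0.102).

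**Figure D5:**
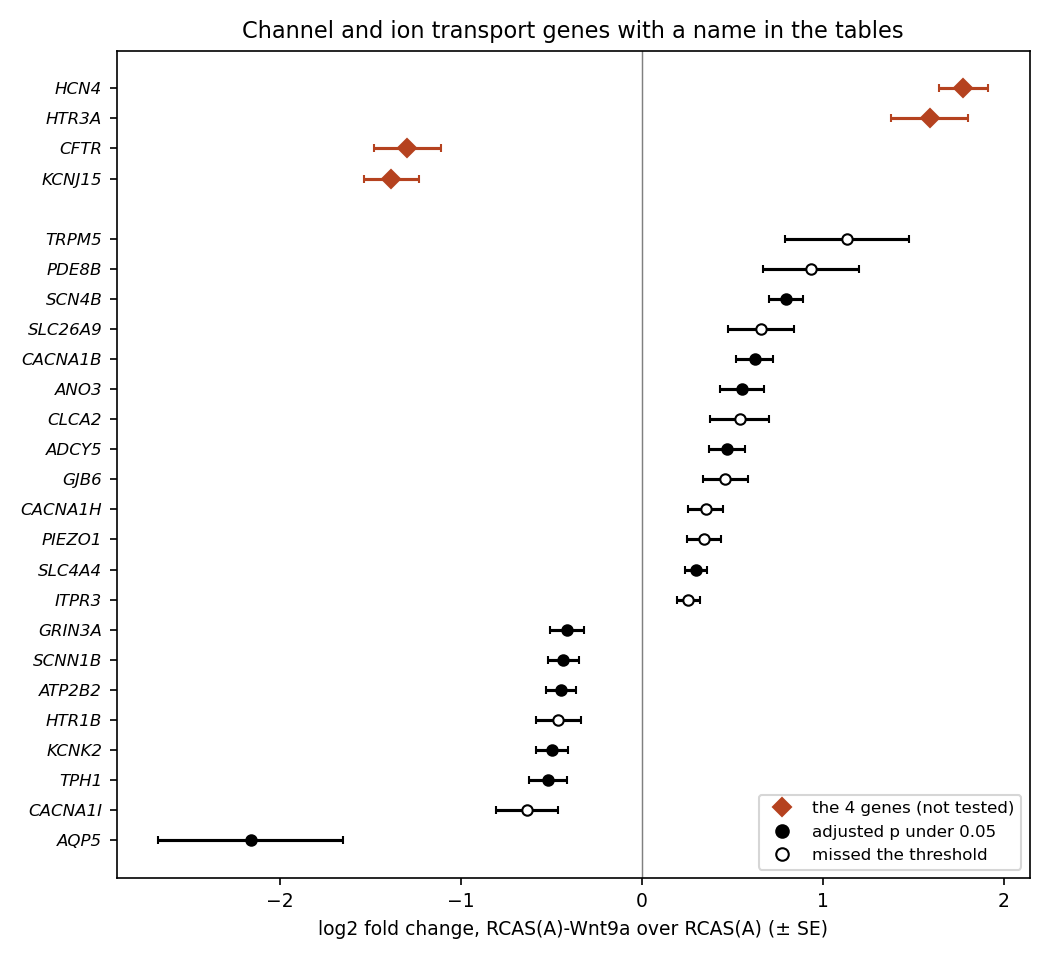
Log2 fold change, RCAS(A)-Wnt9a over RCAS(A), with its SE (x axis) for the 4 genes (diamonds, not tested) and the 21 other list genes named in the tables (filled circles past the threshold, open circles not). TPH1, HTR1B, ADCY5 and PDE8B are pathway genes and not channels or transporters. Apart from AQP5, which had 8 counts in all with RCAS(A)-Wnt9a and 38 with RCAS(A), the genes past the threshold lie closer to 0 than the 4 genes.

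Marker genes of the cell types a papilla dissection could hold were read only where the authors' tables of changed genes name them. The markers read were thus chosen as changed, and unnamed markers are not shown to be unchanged. Over all tested genes, 1.43% passed the threshold upward and 0.841% downward. The part of the markers in the values of the 4 genes was not tested. The 6 of 9 supporting and nonsensory cell markers with a name summed to 289.8 to 402 CPM in the RCAS(A)-Wnt9a libraries and 511 to 536 CPM in the RCAS(A) libraries, with 1 past the threshold upward and 3 downward. Most of that sum was OTOA, which missed the threshold (edgeR adjusted p = 0.0658) at 263.7 ± 45.7 CPM with RCAS(A)-Wnt9a and 365 ± 5.71 CPM with RCAS(A) (SD, n = 3 each). The 3 markers that fell were TECTB, SPARCL1 and HES5, with log2 fold changes of -4.14, -2.62 and -0.78. TECTB was also among the genes most like KCNJ15, and SPARCL1 among those most like CFTR. The marker that rose was ZPLD1, with 17.7 ± 0.46 CPM with RCAS(A)-Wnt9a and 9.27 ± 1.92 CPM with RCAS(A) (SD, n = 3 each), so the sum does not describe each marker. Hair cell markers (3 of 13 named) summed to 42.8 to 55.2 CPM with RCAS(A)-Wnt9a and 62.8 to 66.1 CPM with RCAS(A), with BDNF and CIB2 lower. The third, PCDH15, had the opposite sign at 0.54 on the log2 scale and was not past the threshold (edgeR adjusted p = 0.0702), while DESeq2 called all 3. All 3 are in the authors' DESeq2 list of changed genes, so that count is not independent of the naming. Periotic mesenchyme markers (6 of 16 named) summed to 947 to 1114 CPM with RCAS(A)-Wnt9a and 815 to 868 CPM with RCAS(A), with 2 higher and 1 lower. Most of that sum was COL1A2 and TBX18, which missed the threshold (edgeR adjusted p = 0.114 and 0.0796), as ACAN did (0.155). PRRX1 and HAPLN1 rose and LUM fell, with log2 fold changes of 0.99, 0.49 and -0.52, so this sum does not describe each marker either. The ganglion neuron marker NTRK2, 1 of 12, fell and held 64.5 to 73.2 CPM with RCAS(A)-Wnt9a and 90.2 to 109.7 CPM with RCAS(A). FLT1, the single named endothelial marker of 8, rose and held 24.7 to 26.0 CPM with RCAS(A)-Wnt9a and 18.6 to 20.3 CPM with RCAS(A). Blood and macrophage markers (2 of 11) summed to 159.6 to 170.2 CPM with RCAS(A)-Wnt9a and 152 to 158 CPM with RCAS(A), with 1 higher and 1 lower. Most of that sum was TFRC, which rose (log2 fold change 0.24, edgeR adjusted p = 0.0428). IL16 fell, with 8.78 ± 1.67 CPM with RCAS(A)-Wnt9a and 21.9 ± 1.30 CPM with RCAS(A) (SD, n = 3 each; edgeR adjusted p = 0.000183), so the sum does not describe it. Striated muscle markers (4 of 9) summed to 3.25 to 5.57 CPM with RCAS(A)-Wnt9a and 8.63 to 22.1 CPM with RCAS(A). None of these muscle genes passed in edgeR's quasi-likelihood test, DESeq2 or limma-voom, against 4 at an unadjusted p under 0.05 and 4 in edgeR's exact test. All 4 were named through the authors' edgeR list of changed genes, so the last 2 counts are not independent of the naming. No named marker was at 0 in all libraries, and of the glial and melanocyte markers none had a name.

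The authors' deposited tables list all 4 genes in both of their analyses. The authors' deposited table from edgeR gives log2 fold changes of 1.78 for HCN4, 1.59 for HTR3A, -1.38 for KCNJ15 and -1.29 for CFTR. The authors' deposited table from DESeq2 gives 1.19 for HCN4, 0.62 for HTR3A, -0.82 for KCNJ15 and -0.57 for CFTR, all nearer 0, and the reduction was greater for HTR3A and CFTR, the genes with the fewest counts, than for the other two. DESeq2 run here on the deposited counts gave 1.779 for HCN4, 1.595 for HTR3A, -1.381 for KCNJ15 and -1.295 for CFTR. These lie near the edgeR values, so the smaller changes belong to the deposited DESeq2 table and not to DESeq2 run here. WNT9A stands at 0.41 in the authors' deposited table from DESeq2, at 6.52 in that from edgeR and at 6.53 in DESeq2 run here. Why the deposited DESeq2 values lie nearer 0 was not tested. The authors' deposited pooled FPKM gave ratios of RCAS(A)-Wnt9a over RCAS(A) of 3.58 for HCN4, 3.03 for HTR3A, 0.367 for KCNJ15 and 0.396 for CFTR. These tables come from the same libraries as the counts.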

How the data were processed

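Per the labels' protocols, total RNA was treated with DNase on the column and made into stranded Illumina libraries. TopHat2, DESeq, edgeR, DESeq2 and galGal4 appear in the submitters' processing notes. How reads were counted, with which strand setting and annotation, is not given in the sources used here. The authors deposited a table of raw counts for each Ensembl gene and library (totals 19200235 to 23017150). The authors' deposited DESeq2 results give a normalized mean signal, log2 fold changes, a Wald score and p-values, per the file headers. In the authors' deposited edgeR results, log2 values and p-values have headers that stand 1 column to their left. The authors deposited FPKM as 1 pooled value per group, with bounds.

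Groups and replicate numbers came from sample titles. Genes kept by filterByExpr (12133 of 15955) were TMM-scaled and tested with edgeR 4.0.16 by the two-sided quasi-likelihood test (robust glmQLFit, then glmQLFTest), with p adjusted by Benjamini-Hochberg and a threshold of 0.05, in R 4.3.3. CPM are on the TMM scale. SE were taken as the absolute log2 fold change over the square root of F. The fit was tested on simulated data. DESeq2 1.42.0, limma-voom (limma 3.58.1), edgeR's exact test, other scalings and filters, a replicate block and leaving out each library were alternatives. That the pools are biological replicates is per the series' design text. Symbols came from the authors' tables (492 of 522 genes named), with S6 read as CACNA1B from its description. All 4 symbols matched RefSeq's GRCg7b. The 4 genes and the lists were chosen with earlier results of these data known. Named genes are the 4, WNT9A, list genes past the threshold by smallest adjusted p (up to 4 a list, or up to 2 as values where none passed; members that missed it were added as values), 3 most similar genes for each of the 4, and nearest genes by position. Sequences were not analysed here. Python 3.11.15 with pandas 2.3.3, scipy 1.17.1 and matplotlib 3.10.9 made tables and figures.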

Additional observations from a re-analysis of the deposited data

How the results depend on the processing

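The log2 fold changes of the 4 genes kept their sign and moved by less than the SD between replicates under all 14 alternatives (56 values). Their ranges were 1.66 to 1.88 for HCN4, 1.41 to 1.73 for HTR3A, -1.47 to -1.23 for KCNJ15 and -1.38 to -1.17 for CFTR. As the groups do not overlap for these genes, the signs were fixed in advance. Leaving out 1 library of a group can hardly move its mean by that SD, and the other alternatives reuse the same libraries. The small moves are thus no test of how well the values would repeat in new pools. The number of genes past the threshold, 276 in all, came to 439 by DESeq2, 503 by the exact test of edgeR, 506 with the replicate block and 116 with at least 1.5-fold, and 146 to 294 with 1 library left out, lowest without RCAS(A) replicates 4 and 2. Of the 21 other list genes tested, 11 were called, against 3 with a 1.5-fold criterion and 2 to 8 with 1 library left out, not always among the 11. The exact test called 21, but all 21 were named through the authors' edgeR list of changed genes, so that count is not independent of the naming. WNT9A had log2 fold changes of 5.86 to 6.82 with 1 library left out. The titles share only the numbers 2 and 3, and same-numbered libraries deviated together at r = -0.014 and 0.233 across genes, so the numbers are not shown to pair the pools. The replicate block, fitted on those 4 libraries, put WNT9A at 6.03 on the log2 scale and called 14 of the 21 list genes. That fit has very few libraries from which to estimate spread, so its 506 and 14 calls are not comparable with those from all libraries. Counts as low as 31 limit HTR3A and CFTR, and the cause of these shifts was not tested.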
